A study of Mus musculus with 4 samples.

Results

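Both mature arms of 5 mouse hairpins are described: mmu-miR-135b-5p and mmu-miR-135b-3p, mmu-miR-672-5p and mmu-miR-672-3p, mmu-miR-331-5p and mmu-miR-331-3p, mmu-miR-187-5p and mmu-miR-187-3p, and mmu-miR-3068-5p and mmu-miR-3068-3p. These are 10 of the 1900 miRNA names in the count table, matched by name. The hairpins were chosen because the less abundant arm gained on the more abundant one in GFP-AGO2 libraries relative to Control libraries, by more than 1.9 on the log2 scale. As the ratio was computed here, miR-331 was at 1.89, and 6 hairpins that were not chosen also exceeded 1.9. The choice used the contrast between the groups, so the differences between GFP-AGO2 and Control below are descriptions without a test.

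The data were 4 small RNA libraries made after RNA immunoprecipitation for Argonaute2 (AGO2) from freshly dissected olfactory bulb of C57BL/6 mice. The GFP-AGO2 group (n = 2, replicates 1 and 3) came from mice injected with LV.PGK.GFP-AGO2. By its name this vector carries a fusion of green fluorescent protein and AGO2 under the Pgk promoter, which is active in most cell types. The Control group (n = 2, replicates 1 and 3) came from sham-injected mice of the same strain, and both groups were taken 8 weeks after injection. The series concerns newborn neurons of the bulb, but the labels describe whole bulb tissue. The sources used here give neither the antibody nor the age of the mice, and they do not say that replicates came from separate mice, so the spread between libraries may be technical.

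A miRNA hairpin is cut by Drosha and then by Dicer into a short duplex, and Argonaute keeps one strand as the guide and discards the other, the passenger. The strand from the 5′ side of the hairpin is named 5p and the one from the 3′ side 3p. Argonaute is known to favour the strand whose 5′ end is less firmly paired and which begins with U or A, and the ratio of the arms in Argonaute-bound RNA is therefore the usual readout of strand choice.

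The mature sequences are printed here because each arm, once loaded, is directed to its targets by its own seed, bases 2 to 8, which is shown in capitals. RefSeq (GRCm38.p6) gave a mature sequence for 7 of the 10 arms, and the let-7b-5p and miR-135a-2-3p sequences are added for comparison.
miR-135b-3p: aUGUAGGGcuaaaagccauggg
miR-672-5p: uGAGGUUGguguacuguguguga
miR-672-3p: aCACACAGucacuaucuucga
miR-331-5p: cUAGGUAUggucccagggaucc
miR-331-3p: gCCCCUGGgccuauccuagaa
miR-3068-5p: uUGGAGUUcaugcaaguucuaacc
miR-3068-3p: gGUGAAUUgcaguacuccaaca
let-7b-5p: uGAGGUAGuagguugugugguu
miR-135a-2-3p: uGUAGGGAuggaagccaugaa

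None of these 7 member arms shared its seed with another of them, so within miR-672, miR-331 and miR-3068 the arms of a hairpin differ in seed. The seed of miR-672-5p was that of let-7b-5p with the substitution A7U, counted from the 5′ end of the mature strand over bases 1 to 8. The comparison with let-7, the miRNA named in the title of the series, was made after the values were seen. Among the annotated mouse miRNAs with a sequence here, miR-377-5p had the seed of miR-672-5p and miR-6973b-5p that of miR-331-5p. Neither had more than 10 counts in any library, and neither was tested. The letters of the miR-135b-3p seed were found at bases 1 to 7 of miR-135a-2-3p, so the 3p arms of these paralogous hairpins carry the same letters in a frame shifted by a single base.

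The hairpins of miR-672, miR-331 and miR-3068 are shown to place the arms, which are in capitals with the 5p arm first.
miR-672 hairpin: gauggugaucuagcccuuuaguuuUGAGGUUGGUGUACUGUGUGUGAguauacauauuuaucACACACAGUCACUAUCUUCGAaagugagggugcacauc
miR-331 hairpin: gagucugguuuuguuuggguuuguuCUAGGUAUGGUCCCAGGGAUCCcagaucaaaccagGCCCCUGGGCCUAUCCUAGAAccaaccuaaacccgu
miR-3068 hairpin: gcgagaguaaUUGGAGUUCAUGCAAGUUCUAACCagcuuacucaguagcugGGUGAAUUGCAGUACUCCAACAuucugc

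The hairpins lie at separate places in the genome (mm10, identical to GRCm38 in coordinates), and no other miRNA name of the table lay within 10 kb of any of them. The miR-135b arms span positions 132198103 to 132198163 on the plus strand of chromosome 1, in an intron of Lemd1 and of the overlapping gene model AC124108.1. The miR-672 arms span 104116192 to 104116250 on the minus strand of chromosome X, in an intron of Nexmif, a gene whose loss causes X-linked intellectual disability in humans. The miR-331 arms span 93963783 to 93963838 on the minus strand of chromosome 10, within an exon of a Vezt transcript. Vezt encodes vezatin, a protein of adherens junctions.

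The miR-3068 arms span 87437685 to 87437747 on the minus strand of chromosome 12, in an intron of Alkbh1, which encodes a nucleic acid demethylase. The same positions are exonic in the long noncoding RNA Gm29362 and in a gene model called Mir3068 that GENCODE M21 types as a snoRNA. The miR-187 arms span 24429110 to 24429168 on the minus strand of chromosome 18, between genes. Each member arm had 1 position in the table and overlapped no other name, so it shared no position with another listed miRNA. Whether reads of similar sequence, as in related miRNAs, were placed at the right position was not examined. All 10 arms passed the filter on low counts that left 457 miRNAs for testing. MiR-135b-3p, miR-672-3p and miR-331-5p had under 10 counts in each Control library and passed through the GFP-AGO2 libraries alone. That these arms were higher in GFP-AGO2 was therefore partly fixed by the filter.

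The libraries held 1858354 to 2809758 miRNA counts in GFP-AGO2 and 673916 to 1006861 in Control. Of the 457 tested miRNAs, 34.4% were called different by edgeR's quasi-likelihood test at an adjusted p under 0.05, 17.3% higher and 17.1% lower. Neuronal markers were present in every library: the 6 listed names summed to 1.96% and 1.77% of the counts in GFP-AGO2 and to 1.31% and 1.52% in Control, with 2 of 6 called higher and 1 lower. The names listed for epithelium and for vessel, blood and immune cells summed to less in GFP-AGO2. Whether they mark those cell types in the bulb was not tested. The 8 epithelial names (miR-200 family and miR-183 cluster) summed to 2.56% and 4.998% in GFP-AGO2 and to 23.44% and 22.98% in Control, with all 8 called lower. Of 13 vessel, blood and immune names, 12 were in the table, 5 were tested and 3 were called lower. They summed to 0.0359% and 0.169% in GFP-AGO2 and to 0.489% and 0.357% in Control, with miR-126a-3p, miR-126a-5p and miR-142-3p listed at 0 throughout. The part of these markers in the arm ratios below was not tested, and in whole bulb tissue fewer cells of a type and less RNA per cell cannot be told apart. The groups also differ in the injected vector. A difference in which AGO2, and from which cells, was captured cannot be told apart from these either.

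Levels are given as CPM, counts scaled to a common library size with the trimmed mean factors (TMM) of edgeR. CPM values were not divided by length, since the arms are 21 to 24 bases long and a read spans the whole arm. The arm ratio of a library is the log2 of the less over the more abundant arm, with 0.5 counts added to each. A library's scaling factor cancels in this ratio apart from the added 0.5, which weighs more where an arm has few counts. Which arm was the less abundant was set by the mean CPM over the 4 libraries. The shift is the mean ratio in GFP-AGO2 minus that in Control.

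**Figure D1:**
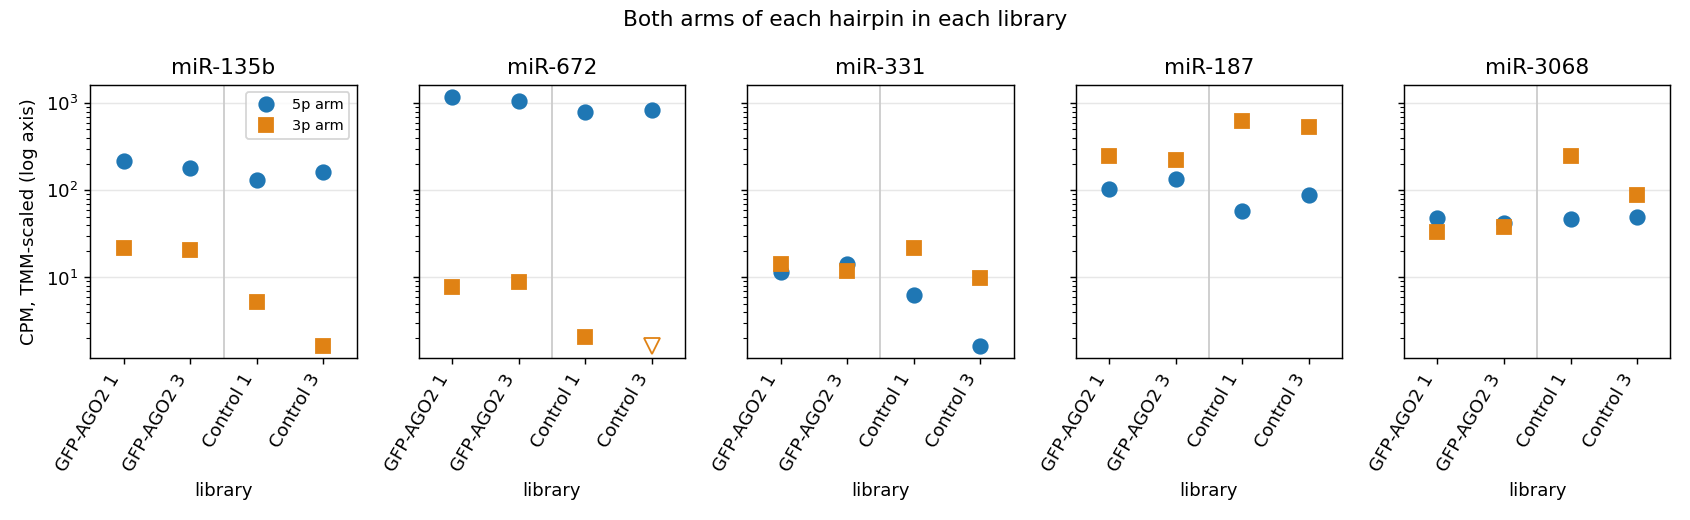
CPM of the 5p arm (circles) and the 3p arm (squares) of each hairpin in the 4 libraries, on a log axis; the open triangle stands at the level of 1 count and marks the library in which miR-672-3p had 0 counts. The miR-135b and miR-672 panels differ mainly in the 3p arm at the bottom, the miR-187 and miR-3068 panels in the 3p arm at the top.

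The arms did not move in the same way in the 5 hairpins. In miR-135b and miR-672 the dominant 5p arm differed little and the scarce 3p arm was several times higher in GFP-AGO2. In miR-187 and miR-3068 the dominant 3p arm was lower in GFP-AGO2. In miR-331, the least abundant of the hairpins, the 5p arm was higher and the 3p arm overlapped between the groups. The gain therefore went to the 3p arm in miR-135b and miR-672 and to the 5p arm in miR-331, miR-187 and miR-3068.

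MiR-135b is the paralogue of the miR-135a pair of hairpins. Its scarce arm, miR-135b-3p, had 65 and 42 counts in GFP-AGO2 replicates 1 and 3 and 5 and 1 counts in Control replicates 1 and 3. In CPM these are 21.9 and 20.6 in GFP-AGO2, against 5.20 and 1.65 in Control. The GFP-AGO2 libraries lay close to each other and above the Control libraries, while the Control libraries differed by several-fold on very few counts. The log2 fold change of miR-135b-3p was 2.50 (SE 0.62).

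The dominant arm miR-135b-5p had 215 and 180 CPM in GFP-AGO2 and 130 and 163 CPM in Control. The groups did not overlap, but the gap between them was smaller than the gap within either group, and the log2 fold change was 0.44 (SE 0.21). The 3p arm took 9.23% (95% exact interval 7.20 to 11.6) and 10.3% (7.502 to 13.6) of the hairpin's counts in GFP-AGO2, against 3.85% (1.26 to 8.75) and 1.00% (0.0253 to 5.45) in Control. The interval of Control replicate 1 overlapped those of both GFP-AGO2 libraries. The mean log2 arm ratio was -3.20 ± 0.12 in GFP-AGO2 and -5.28 ± 1.09 in Control (SD, n = 2 each), a shift of 2.08. Without Control replicate 3, in which 1 count of the 3p arm was seen, the shift was 1.31, and with 5 counts added to each arm it was 0.81.

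MiR-672 had the most abundant dominant arm of the 5 hairpins. MiR-672-5p, which begins with U, had 1169 and 1057 CPM in GFP-AGO2 and 804 and 839 CPM in Control. Each GFP-AGO2 value exceeded each Control value by a modest margin, and the log2 fold change was 0.44 (SE 0.14). Its partner miR-672-3p had 23 and 18 counts in GFP-AGO2 and 2 and 0 counts in Control, or 7.74 and 8.83 CPM against 2.08 and 0 CPM.

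The Control level of miR-672-3p thus rests on 2 counts in all. The ratio of the summed counts per scaled library size was 6.42, with an exact Poisson interval of 1.67 to 54.8 that covers counting error only. Since the arm was chosen from this contrast, the interval shows how loosely 2 counts fix the ratio and is no test of a difference. As a share of the hairpin, the 3p arm took 0.658% (95% exact interval 0.417 to 0.986) and 0.828% (0.492 to 1.31) in GFP-AGO2. In Control it took 0.258% (0.0313 to 0.929) in replicate 1 and 0 of 508 counts (0 to 0.724) in replicate 3. Taken as 3 counts, the limit that a count of 0 allows is a share of 0.591% there. The intervals of all 4 libraries overlapped. The mean log2 arm ratio was -7.04 ± 0.24 in GFP-AGO2 and -9.13 ± 1.21 in Control (SD, n = 2 each), a shift of 2.10. Without Control replicate 3 the shift was 1.24, and with 5 counts added to each arm in place of 0.5 it was -0.016.

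**Figure D2:**
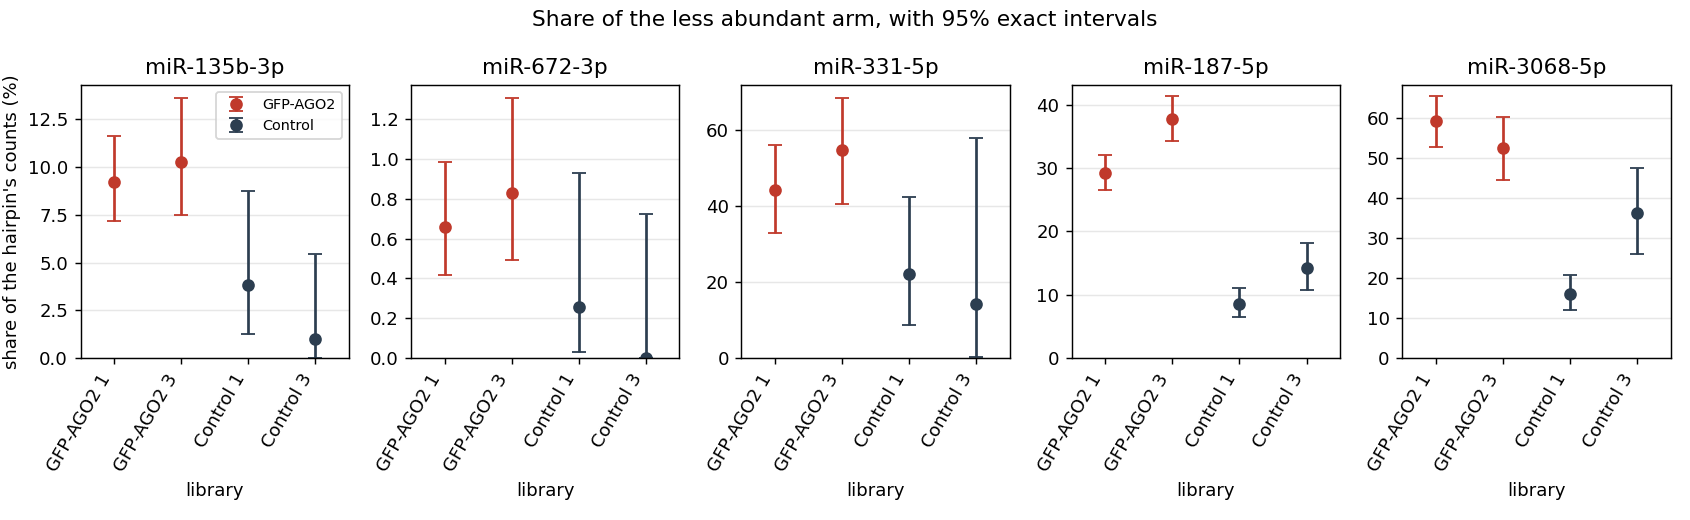
Share of the less abundant arm in the counts of its hairpin, in percent, for the 2 GFP-AGO2 and the 2 Control libraries; bars are 95% exact intervals, and each panel has its own axis starting at 0. The intervals of the groups are apart for miR-187-5p and overlap between at least 1 pair of libraries for the other 4 arms.

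MiR-331 was near the lower limit of detection. Its 3p arm is known in human cancer cells as a repressor of ERBB2. MiR-331-5p had 34 and 29 counts in GFP-AGO2 and 6 and 1 counts in Control, or 11.4 and 14.2 CPM against 6.24 and 1.65 CPM. MiR-331-3p had 43 and 24 counts in GFP-AGO2 and 21 and 6 in Control, or 14.5 and 11.8 CPM against 21.8 and 9.90 CPM. The 5p arm was higher in both GFP-AGO2 libraries, with a log2 fold change of 1.56 (SE 0.72), and the 3p arm lay between its Control libraries, at -0.31 (SE 0.55). Leaving out Control replicate 1 gave log2 fold changes of 2.95 for miR-331-5p and 0.47 for miR-331-3p, whose sign turned. Leaving out Control replicate 3 gave 0.99 for the 5p arm and -0.76 for the 3p arm.

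The 5p arm of miR-331 took 44.2% (95% exact interval 32.8 to 55.9) and 54.7% (40.4 to 68.4) of the hairpin in GFP-AGO2, against 22.2% (8.62 to 42.3) and 14.3% (0.361 to 57.9) in Control. The last of these values is 1 count of 7. Arms near balance in GFP-AGO2 therefore stood beside a 3p-dominated hairpin in Control, but the intervals overlapped between the groups. The mean log2 arm ratio was -0.03 ± 0.43 in GFP-AGO2 and -1.92 ± 0.28 in Control (SD, n = 2 each). The shift of 1.89 is just under the limit; it was 1.98 as the ratio of group mean CPM with nothing added, a form computed after this was seen. It was 1.44 with 2 counts added to each arm, 1.02 with 5, and 1.36 with 5 added in proportion to depth.

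MiR-187 had the most counts of a scarcer arm in Control, 56 and 53 of miR-187-5p. Its 3p arm is known in human monocytes as an interleukin-10-induced miRNA that lowers inflammatory cytokines. MiR-187-3p had 742 and 454 counts in GFP-AGO2 and 596 and 321 in Control, or 250 and 223 CPM against 620 and 530 CPM. The groups were far apart relative to the spread within them, with a log2 fold change of -1.28 (SE 0.17). MiR-187-5p had 103 and 135 CPM in GFP-AGO2 and 58.2 and 87.5 CPM in Control, a log2 fold change of 0.72 (SE 0.30).

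The arms of miR-187 thus lay on opposite sides of 0. The 5p arm took 29.2% (95% exact interval 26.5 to 32.1) and 37.7% (34.2 to 41.4) of the hairpin in GFP-AGO2, against 8.59% (6.55 to 11.0) and 14.2% (10.8 to 18.1) in Control. This was the hairpin of the 5 in which every GFP-AGO2 interval lay above every Control interval. The mean log2 arm ratio was -0.999 ± 0.39 in GFP-AGO2 and -2.99 ± 0.57 in Control (SD, n = 2 each), a shift of 1.99, and it was 1.59 to 2.40 when a library was left out. The arms summed to 353 and 358 CPM in GFP-AGO2 and to 678 and 617 CPM in Control, so that the hairpin as a whole was at 0.548 of its Control level.

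In miR-3068 the order of the arms was reversed. MiR-3068-5p had 48.5 and 42.2 CPM in GFP-AGO2 and 46.8 and 49.5 CPM in Control, with a log2 fold change of -0.08 (SE 0.28). MiR-3068-3p had 33.3 and 38.3 CPM in GFP-AGO2, against 245 and 87.5 CPM in Control, with a log2 fold change of -2.24 (SE 0.51) that was -1.24 without Control replicate 1. The 5p arm was therefore level across the 4 libraries while the 3p arm was lower in both GFP-AGO2 libraries and uneven in Control, where replicate 1 held 236 counts and replicate 3 held 53.

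The 5p arm of miR-3068 took 59.3% (95% exact interval 52.8 to 65.5) and 52.4% (44.5 to 60.3) of the hairpin in GFP-AGO2, against 16.0% (11.9 to 20.8) and 36.1% (25.9 to 47.4) in Control. It was the larger arm in both GFP-AGO2 libraries and the smaller one in both Control libraries, although the intervals of GFP-AGO2 replicate 3 and Control replicate 3 overlapped. The mean log2 arm ratio was 0.34 ± 0.28 in GFP-AGO2 and -1.59 ± 1.11 in Control (SD, n = 2 each), a shift of 1.93. Without Control replicate 1 the shift was 1.15. The arms summed to 81.8 and 80.5 CPM in GFP-AGO2 and to 292 and 137 CPM in Control.

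**Figure D3:**
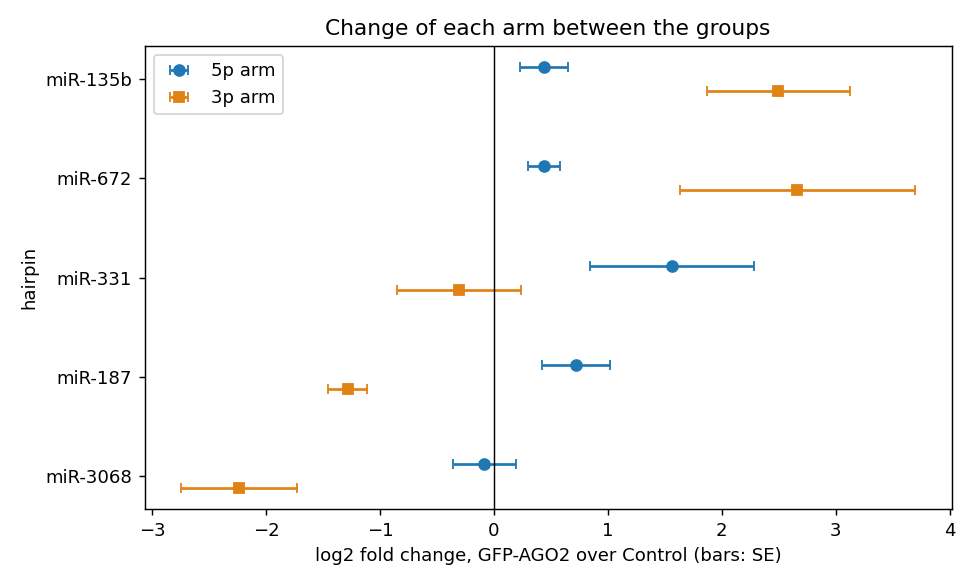
Log2 fold change of GFP-AGO2 over Control for the 5p arm (circles) and the 3p arm (squares) of each hairpin, with the SE of the edgeR fit (2 libraries a group). The point of miR-672-3p rests on 2 Control counts. The 3p arm lies right of the 5p arm in miR-135b and miR-672 and left of it in the other 3 hairpins.

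By the call rule used for all miRNAs, 1 of the 10 arms was higher (miR-135b-3p) and 2 were lower (miR-187-3p and miR-3068-3p), beside 17.3% and 17.1% of the 457 tested miRNAs. Since the arms were chosen from this contrast, nothing is read from that count. In CPM the groups did not overlap for 8 of the 10 arms, GFP-AGO2 being higher for 6 and lower for 2. Beside this stand 36.8% and 35.2% of the tested miRNAs, and nothing is read from this count either. Over the 10 arms the median log2 fold change was 0.44, and over all tested miRNAs it was -0.01. The choice and the filter partly fix this difference of medians, and nothing is read from it. MiR-135b-3p was not called without Control replicate 3 or with DESeq2, and miR-3068-3p was not called without Control replicate 1. The summed level of both arms was higher in GFP-AGO2 for miR-135b (237 and 201 CPM, against 135 and 165 in Control) and for miR-672 (1177 and 1066 CPM, against 806 and 839). For miR-331 the sums overlapped, at 25.9 and 26.01 CPM in GFP-AGO2 and 28.1 and 11.6 CPM in Control.

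The 5 hairpins were set among all 109 hairpins whose 5p and 3p names both passed the filter. The shift exceeded 1.9 in 10 hairpins (9.17%), of which 4 are described here and 6 are not, and it was under -1.9 in 9 (8.26%). Shifts ran from -4.24 to 2.52 with a median of -0.05, and 52 were above 0 and 57 below, so that the scarcer arm gained about as often as it lost. The highest shifts outside the 5 were those of miR-431 (2.52), miR-380 (2.51) and miR-676 (2.44), and the lowest were those of miR-6516 (-4.24), miR-376b (-3.78) and miR-323 (-3.69). Of the 5 hairpins, miR-3068 at 1.93 lay just inside the limit and miR-331 at 1.89 just outside it; the next hairpin below was miR-379 at 1.77.

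In 32.1% of the 109 hairpins both GFP-AGO2 arm ratios lay above both Control ratios, and in 30.3% both lay below. All 5 hairpins described here belong to the first class, which their choice largely fixes. The hairpins whose 4 centred arm ratios lay nearest to the mean profile of the 5 were miR-382, miR-148b and miR-676, at root mean square distances of 0.21, 0.22 and 0.26 on the log2 scale over 4 libraries.

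**Figure D4:**
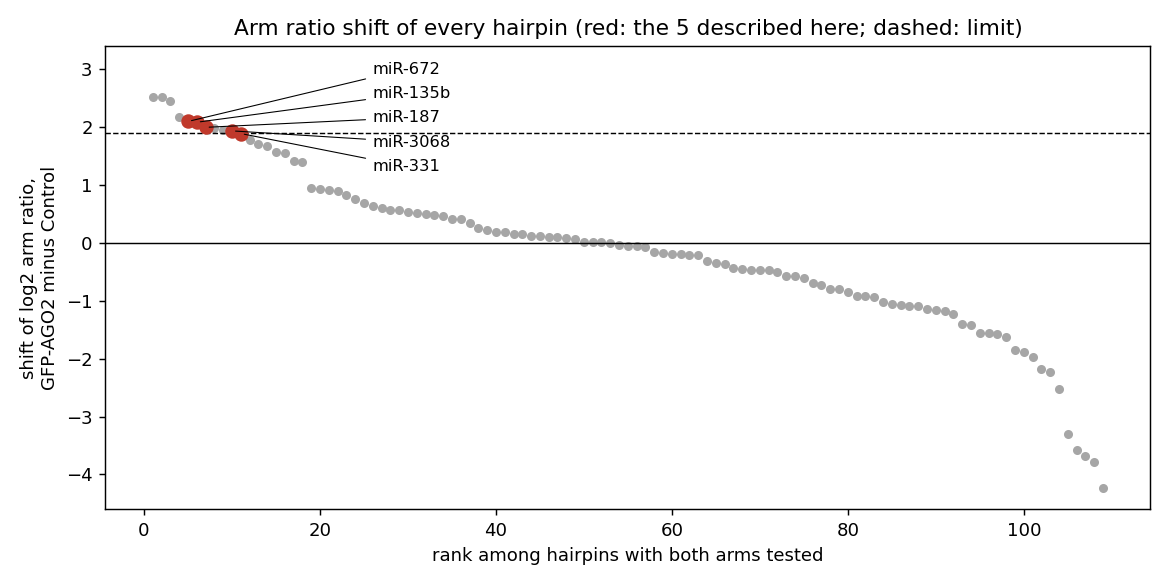
Shift of the log2 arm ratio, GFP-AGO2 minus Control, for the 109 hairpins with both arms tested, ranked from the highest; red points are the 5 hairpins described and the dashed line is the limit of 1.9. The 5 lie at ranks 5, 6, 7, 10 and 11, and the curve reaches further below 0 than above it.

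The miR-135a hairpins, the relatives of miR-135b, were picked by family and not by their own arm ratios, although earlier results of these data were known. Their common 5p arm, which has 2 positions and cannot be assigned to either hairpin, had 334 and 241 CPM in GFP-AGO2 and 163 and 258 CPM in Control (log2 fold change 0.46, SE 0.29; edgeR adjusted p = 0.272). MiR-135a-2-3p had 31 and 35 counts in GFP-AGO2 and 7 and 1 in Control (log2 fold change 1.48, SE 0.76; edgeR adjusted p = 0.194), and miR-135a-1-3p, which did not pass the filter, had 24 and 12 counts in GFP-AGO2 and 4 and 0 in Control. Neither tested arm passed the threshold, and miR-135a-2-3p passed the filter through its GFP-AGO2 libraries. With both 3p arms summed, they took 5.25% (95% exact interval 3.98 to 6.78) and 8.72% (6.48 to 11.4) of the family's counts in GFP-AGO2, against 6.55% (3.31 to 11.4) and 0.637% (0.0161 to 3.498) in Control. The groups overlapped, because Control replicate 1 lay between the GFP-AGO2 libraries. The log2 ratio of 3p to 5p was higher in GFP-AGO2 by 1.47 with all libraries, and by 0.01 without Control replicate 3.

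The ends of the arms were read from the sequences, which the choice of hairpins had not used. RNAfold paired all of the first 4 bases of the scarcer arm in miR-672, miR-331 and miR-3068. It did so in 51 of the 86 hairpins (59.3%) outside chromosome 18 for which both arms and the hairpin had a sequence. In miR-672 the scarce 3p arm begins with A and had 2 G-C pairs among its first 4 bases, against 1 for the dominant 5p arm, which begins with U. In miR-331 the 5p arm begins with C and had 2 such pairs, against 3 for the 3p arm, which begins with G. In miR-3068 the 5p arm begins with U and the 3p arm with G, and each had 2. The arm with the higher mean CPM thus began with G in 2 of these 3 hairpins, as it did in 12 of the 86 (14.0%). Over the 86, it began with U in 45 (52.3%). The more abundant arms of miR-135b and miR-187 are not among the sequences used here. The first bases of all 5 hairpins are therefore not known from these values, and nothing is read from the 2 of 3.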

How the data were processed

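Whole-number counts per mature miRNA name were deposited by the authors and, per the file headers, made with featureCounts 1.4.6-p1 on primary alignments over a miRBase annotation for mm10, with no strand option and no option for reads that overlap more than 1 name. Cutadapt and STAR are named in the submitters' processing notes; no version of either is given there. Columns were tied to samples by title. A chi-square test found the replicates of a group to be different libraries.

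Counts were fitted with edgeR 4.0.16 in R 4.3.3 (quasi-likelihood F test, TMM, filterByExpr at 10 counts, two-sided, Benjamini-Hochberg over 457 miRNAs), and the filter kept 99.88% to 99.93% of a library's counts. SE values are the log2 fold change divided by the root of F. DESeq2 1.42.0, other scalings and filters, other added counts and leaving out a library were alternatives. Exact intervals (Clopper-Pearson) cover counting error only, since PCR copies count as separate reads. Hairpins were folded with ViennaRNA 2.7.2; names and positions came from GENCODE M21 and RefSeq. The hairpins were described by both arms, the relatives and nearby names by family and by distance, and other hairpins by the 3 highest and lowest shifts and the 3 nearest profiles; members, lists and tests were chosen with earlier results of these data known.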

Additional observations from a re-analysis of the deposited data

How the results depend on the processing

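The shifts of miR-187 and miR-3068 kept their direction and moved by less than 1 SD within groups under all 14 alternatives tried. Those of miR-135b and miR-331 kept their direction under all 13. With added counts they moved by more than 1 SD, miR-135b in 1 setting and miR-331 in each. Part of this was fixed in advance. With 2 libraries a group and ratios that did not overlap, leaving out a library could not turn the sign. Nor could it move a shift by more than that SD. The filter alternatives used the same counts and gave the same shifts. Adding 2 counts to each arm gave 0.86 for miR-672 and 1.44 for miR-331, and left 5 hairpins above 1.9. Adding 5 gave 0.81 for miR-135b, 1.02 for miR-331 and -0.016 for miR-672, whose sign turned, and left 3. The same number of added counts weighs more in the shallower Control libraries. With 5 counts added in proportion to depth, chosen after the data were seen, miR-672 had 0.93 and miR-331 had 1.36, and 5 hairpins were above 1.9. With no filter 42 of 344 hairpins were above it. Leaving out a library gave 1.31 to 2.85 for miR-135b, 1.24 to 2.95 for miR-672, 1.59 to 2.19 for miR-331, 1.59 to 2.40 for miR-187, 1.15 to 2.72 for miR-3068, and 9 to 10 hairpins above the limit. The number of miRNAs called, 157, was 90 without Control replicate 1, 102 without Control replicate 3 and at most 200 without a GFP-AGO2 library. Total counts alone moved the median of all miRNAs to 0.20 and the calls to 100 higher and 66 lower. With the replicate number as a block, which the labels do not say pairs the samples (correlation of deviations -0.05), 164 miRNAs were called, the same 3 member arms among them, and the shifts were 1.86 to 2.29. Depth limits the arms with few Control counts, miR-672-3p, miR-135b-3p and miR-331-5p.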

Other observations

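Over the 86 hairpins with sequences, the median shift was 0.52 where the more abundant arm began with G (12 hairpins, 2 of them miR-331 and miR-3068), and 0.44 over the other 10. It was -0.19 where that arm began with U (45 hairpins), -0.10 with A (16) and 0.01 with C (13). By the first base of the less abundant arm the medians were 0.10 (U), -0.27 (A), -0.05 (C) and -0.44 (G). Where the more abundant arm had fewer G-C pairs in its first 4 bases than the other arm, the median was -0.37. It was 0.01 with equal pairs and 0.08 with more. The members were chosen on the shift itself. These values describe the 4 libraries and were not tested.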
